A study of Mus musculus with 32 samples.

Results

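Transcripts of 37 genes for cathepsins and other lysosomal proteins were measured by RNA-seq in hippocampus (HPC), meninges and sorted meningeal lymphatic endothelial cells (mLECs). The genes were taken from a list of 37 symbols, and all 37 were found among the 22337 genes of the tables. The list holds 10 cathepsins, 2 other peptidases, 9 glycosidases or sulfatases, 7 proteins of lipid handling, 6 membrane proteins or channels and 3 regulators or pump subunits.

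All 32 libraries came from male mice 6 months of age, each library from 1 mouse. The 5xFAD transgenes are mutated human APP and presenilin, driven in neurons by Thy1 sequence, and WT mice were littermates without the transgenes. The light-treated 5xFAD mice received transcranial near-infrared light, and the untreated groups had the same anaesthesia and shaving under room light. Each of the 3 groups (WT, untreated 5xFAD, 5xFAD with light) had 4 HPC libraries. Meninges and mLECs had 4 WT, 3 untreated and 3 treated libraries each. Light was thus compared on the 5xFAD background alone. mLECs were sorted as live cells negative for CD45 and positive for CD31 and PDPN.

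Lysosomes are acid compartments in which proteins, glycans, lipids and nucleic acids are broken down. Cathepsins are their main proteases, most of them cysteine or aspartic enzymes that are made as inactive precursors, sorted through the Golgi and activated in the acid lumen. In the brain, microglia and border macrophages are rich in these enzymes and take up debris and amyloid, while neurons and glia depend on them for turnover, and inherited loss of many of them causes lysosomal storage disease. TFEB is a transcription factor that drives many lysosomal genes through short sites related to the E-box in their promoters.

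Sites of this kind were searched in the 250 bases before the RefSeq start sites of the genes (RefSeq, GRCm38.p6). The promoters are shown because such sites are the best known sequence feature of lysosomal genes, and members that passed the test in 5xFAD HPC and members that did not both hold them. The table had an entry for 31 of the 37 members, and Ctsb, Ctsh, Npc1, Asah1, Plbd2 and Atp6v0d2 had none. The letters TCACGTG, read on both strands, occurred in 9 of the 31, that is in 29% of them, against 3.58% of all 27025 symbols. Of the 17 matched members that were higher in untreated 5xFAD than in WT HPC, 4 held it (Ctsa, Ctsd, Lgmn and Naglu), and of the 14 others, 5 held it (Gaa, Glb1, Gla, Lamp1 and Mcoln1). The shorter CACGTG, which lies within it, was in 35.5% of the members and 6.86% of all symbols, and the palindrome TCACGTGA, which contains TCACGTG, in 12.9% and 0.907%. The first 4 stretches below are from genes that rose in 5xFAD HPC and the next 3 from genes that did not pass the test. Capitals mark the matched letters, and each stretch is read on the strand of its gene. By GENCODE annotation, which starts some of these genes further upstream than RefSeq, the stretches of Ctsd, Ctsa, Naglu and Mcoln1 overlap an annotated exon, and that of Lgmn lies within the bounds of its gene.
Ctsd, chr7:142387910-142387935, minus strand: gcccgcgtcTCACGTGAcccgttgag
Ctsa, chr2:164833751-164833772, plus strand: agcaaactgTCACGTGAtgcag
Lgmn, chr12:102439106-102439172, minus strand: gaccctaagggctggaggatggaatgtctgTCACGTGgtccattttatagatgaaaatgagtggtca
Naglu, chr11:101070011-101070035, plus strand: accttcaggTCACGTGgcccgaggt
Lamp1, chr8:13159115-13159160, plus strand: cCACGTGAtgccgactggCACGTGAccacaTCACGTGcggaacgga
Mcoln1, chr8:3500464-3500489, plus strand: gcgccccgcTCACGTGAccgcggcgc
Glb1, chr9:114400999-114401065, plus strand: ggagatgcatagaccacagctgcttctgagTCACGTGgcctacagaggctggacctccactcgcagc

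The Lamp1 promoter, whose gene encodes a chief glycoprotein of the lysosomal membrane, held 4 separate sites in its 250 bases, of which the stretch shows 3, and Ctsd and Mcoln1 held 2 each, of which 1 is shown. Cd68 and Ctss, which are among the members that changed most in 5xFAD HPC, held no match to any of these letters in the 250 bases. Their whole windows are given for comparison. A match is only an occurrence of the letters, and its use in these cells was not measured.
Cd68, chr11:69666171-69666420, minus strand: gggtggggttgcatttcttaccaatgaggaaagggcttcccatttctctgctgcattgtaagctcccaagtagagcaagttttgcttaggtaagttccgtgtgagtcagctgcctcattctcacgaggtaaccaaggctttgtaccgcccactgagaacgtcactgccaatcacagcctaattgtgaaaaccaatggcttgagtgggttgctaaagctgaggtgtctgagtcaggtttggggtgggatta
Ctss, chr3:95526536-95526785, plus strand: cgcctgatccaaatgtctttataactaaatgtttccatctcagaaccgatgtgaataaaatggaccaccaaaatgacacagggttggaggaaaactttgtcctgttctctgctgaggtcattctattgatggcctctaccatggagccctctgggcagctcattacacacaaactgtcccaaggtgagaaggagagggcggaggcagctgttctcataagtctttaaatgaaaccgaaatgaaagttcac

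Total estimated counts ran between 13952825 and 23856476 per HPC library, between 6601143 and 14708202 per meninges library and between 14231415 and 24207326 per mLEC library. The spread between libraries was much wider in mLECs, with a biological coefficient of variation of 1.89 against 0.198 in HPC and 0.350 in meninges. Each library came from 1 mouse, so variation between mice and variation from sorting or amplification cannot be told apart. In an mLEC library, 5992 to 9006 genes were detected. None of the 10 neuronal markers was absent from HPC. Meninges libraries held choroid plexus markers at a summed FPKM (fragments scaled to transcript length and to library size) of 17142 to 54645. In HPC, 3 libraries had over 1000 FPKM of these markers (WT replicate 2 and untreated 5xFAD replicates 1 and 2), against 79.6 in the lowest. In mLECs, the leukocyte gene Ptprc was at 0 in all 10 libraries, as the gate implies, but WT replicates 2 and 4 lacked the lymphatic chemokine Ccl21a, at 3.54 and 0 FPKM against 998 to 9356 in the other 8. The lymphatic receptor Lyve1 was also at 0 in these 2 and in no other library. Prox1, the lymphatic transcription factor, did not follow this split, with its highest value (5.71 FPKM) in WT replicate 4 and 0 in WT replicates 1 and 2 and untreated 5xFAD replicate 2. Pdpn, whose protein was used in the sort, was at 0 in WT replicates 2 and 4 and in untreated 5xFAD replicates 2 and 4. Plvap, a gene of fenestrated blood vessels, was at 5181, 3672, 3375 and 2226 FPKM in WT mLECs. It was at 1268, 1545 and 876 in untreated 5xFAD and at 496, 708 and 1431 in light-treated mLECs. Every WT library was thus above every 5xFAD library. The part of this difference in the mLEC comparisons with WT was not tested. Leaving out both WT libraries gave 0 called members in each mLEC comparison by edgeR, as with them.

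In WT mice the members ranged from barely detected to very abundant, and most were higher in meninges than in HPC. On the FPKM scale, which is per transcript length, the highest WT HPC level was that of Psap, the precursor of the saposins that help lipid enzymes, at 667 ± 63.5 (SD, n = 4). Ctsd, the main aspartic protease of the lysosome, followed at 327 ± 25.8 (SD, n = 4), then Lamp1 at 162 ± 15.4 and Ctsb, an abundant cysteine protease, at 158 ± 5.74 (SD, n = 4 each). The last pair overlapped between mice. At the low end were Ctsk at 1.29 ± 0.535 and Tfeb at 1.93 ± 0.664 (SD, n = 4 each), and Atp6v0d2, a pump subunit known from osteoclasts and macrophages, was at 0 to 0.04. The highest level in WT meninges was that of Cd63, a tetraspanin of late endosomes, at 1049 ± 130.4 (SD, n = 4), followed by Ctsd at 879.9 ± 107.

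**Figure D1:**
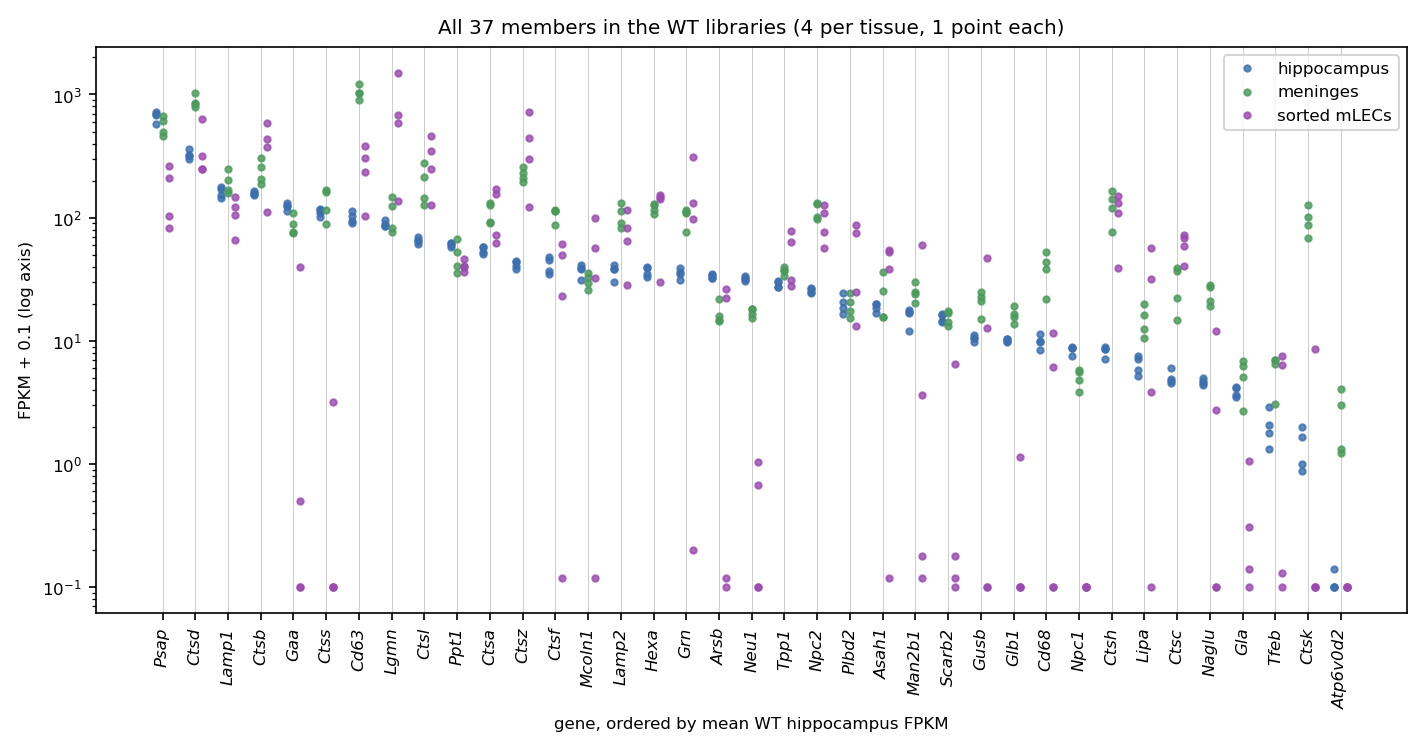
FPKM plus 0.1 on a log axis for the 37 members in the WT libraries, 1 point per library (4 each of hippocampus, meninges and sorted mLECs), with genes ordered by their mean in hippocampus. Psap leads in hippocampus at a mean of 667 and Cd63 in meninges at 1049, and many members lie at the floor of the axis in some mLEC libraries and far above it in others.

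Between the WT tissues, 23 members were higher and 5 were lower in meninges out of 37 tested (adjusted p below 0.05, edgeR). Over all 14144 genes tested, 37.8% were higher and 33.2% were lower, and the median log2 difference was 0.98 for the members and 0.07 for all genes. Of the cathepsins, 9 of 10 were higher, and with a 2-fold threshold 18 members were higher and 1 was lower, against 50% of all genes in either direction. Ctsk, the collagen-degrading cathepsin of osteoclasts, was at 0.90, 1.56, 1.90 and 0.78 FPKM in HPC and at 127, 87.7, 101 and 68.8 in meninges. All 4 meninges libraries were far above all 4 HPC libraries, and the log2 difference was 6.19 ± 0.34 (SE, adjusted p = 1.77e-07 by edgeR). Cd63 differed by 3.34 ± 0.16 and Ctsh, an aminopeptidase among the cathepsins, by 3.80 ± 0.27 on the log2 scale (SE). Atp6v0d2 stood at 1.12 to 4.01 FPKM in meninges, with a log2 difference of 7.38 ± 0.84 (SE), a size that depends on HPC values near 0. Ctsk and Atp6v0d2 belong to a list of 9 osteoclast markers. The sum of that list was 139 to 281 FPKM in WT meninges and 1.97 to 3.36 in WT HPC. Ctsk itself made up a large part of the sum in meninges, so the sum is no separate measure of such cells. The part of osteoclasts in these levels was not tested.

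The 5 members that were lower in WT meninges act on glycans, cholesterol and ion flux rather than on proteins. Members with such roles did not go 1 way, though. Of the 9 glycosidases or sulfatases, 5 were higher and 3 were lower in meninges. Npc2, which also takes part in cholesterol export, was higher by 2.13 on the log2 scale. Arsb, the sulfatase of dermatan sulfate, was at 32.5, 34.6, 32.2 and 34.3 FPKM in HPC and at 21.98, 14.5, 14.8 and 15.8 in meninges, so that the groups did not overlap and the log2 difference was -1.05 ± 0.17 (SE). Neu1, the lysosomal sialidase, differed by -0.97, Npc1, the membrane protein of cholesterol export, by -0.82, and Gaa, acid alpha-glucosidase, by -0.58. Mcoln1, the lysosomal calcium channel, differed by -0.42 with an adjusted p of 0.027 by edgeR, but its groups overlapped and its adjusted p was 0.122 with limma on log2(FPKM + 1). The 9 members that did not pass the test were Psap, Gla, Ppt1, Lamp1, Ctss, Asah1, Lgmn, Plbd2 and Scarb2. In bulk tissue, fewer cells of a type and less RNA per cell cannot be told apart, here and in all comparisons of HPC and meninges.

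The comparison of untreated 5xFAD with WT mice asks how the amyloid model alters lysosomal transcripts. In HPC, 20 of the 36 members tested were higher in untreated 5xFAD mice and 0 were lower. Over all 12981 genes tested, 6.48% were higher and 2.06% were lower. The median log2 fold change of the members was 0.62, against 0.015 over all genes, and 14 members were at least 2-fold higher, against 4.28% of all genes changed by that much in either direction. All 20 had each 5xFAD library above each WT library, which held for 8.75% of all genes. The summed FPKM of the 37 members was 2245 to 2523 in WT, 3825 to 6289 in untreated 5xFAD and 3688 to 4978 in light-treated 5xFAD mice.

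**Figure D2:**
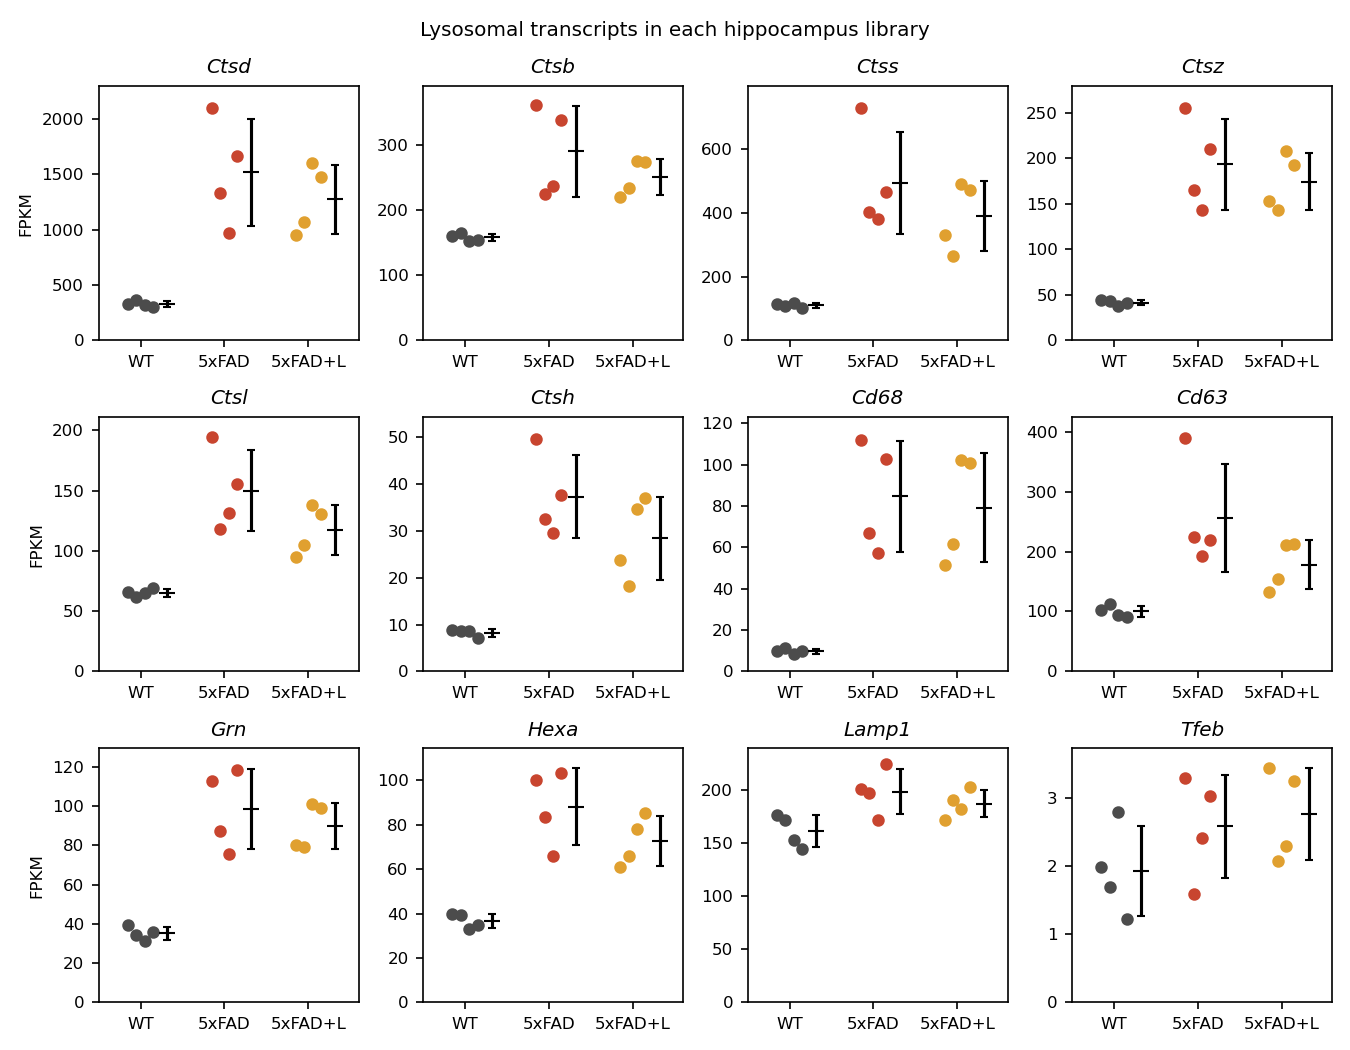
FPKM of 12 members in each hippocampus library (linear axes from 0) for WT, untreated 5xFAD and light-treated 5xFAD (5xFAD+L) mice, 4 in each group, with 1 point per library and a bar for the mean and SD. The WT points lie below both 5xFAD groups for all genes shown except Lamp1 and Tfeb, and the 2 5xFAD groups overlap for each gene.

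Among the cathepsins 8 of 10 rose, with a median log2 fold change of 1.41. Ctsd (chr7:142375911-142388038 on GRCm38, minus strand) was at 326, 362, 317 and 302 FPKM in WT HPC and at 2097, 1330, 973 and 1663 in untreated 5xFAD HPC. The lowest 5xFAD library was far above the highest WT library, and the log2 fold change was 2.23 ± 0.23 (SE, adjusted p = 5.96e-05 by edgeR). Ctss, a cysteine protease of phagocytes that stays active at neutral pH, was at 115, 108, 118 and 101 FPKM in WT and at 727, 400, 379 and 464 in untreated 5xFAD. All 4 of these lay far above WT, the first one highest, and the log2 fold change was 2.17 ± 0.24 (SE). Ctsz, a carboxypeptidase, was at 44.1, 43.3, 38.0 and 40.7 FPKM in WT and at 255, 165, 143 and 211 in untreated 5xFAD. Its groups were far apart, with a log2 fold change of 2.24 ± 0.19 (SE) and the smallest adjusted p of any member, 2.15e-05 by edgeR.

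Ctsh was at 8.79, 8.57, 8.56 and 7.07 FPKM in WT and at 49.7, 32.6, 29.5 and 37.7 in untreated 5xFAD, with a log2 fold change of 2.18 ± 0.25 (SE). Ctsc, which activates the serine proteases of leukocyte granules, was at 4.78, 5.98, 4.59 and 4.48 FPKM in WT and at 23.5, 12.6, 10.3 and 14.0 in untreated 5xFAD, and rose by 1.57 ± 0.25 on the log2 scale (SE). Ctsl and Ctsb, the cysteine endopeptidases found in nearly all cells, had smaller fold changes. Ctsl was at 65.8, 61.3, 64.7 and 69.2 FPKM in WT and at 194, 118, 131 and 155 in untreated 5xFAD (log2 fold change 1.25 ± 0.16, SE). Ctsb was at 160, 165, 152 and 155 FPKM in WT and at 361, 224, 237 and 337 in untreated 5xFAD, which is a log2 fold change of 0.89 ± 0.15 (SE, adjusted p = 0.00251 by edgeR). Both had narrow WT groups and no overlap. Ctsa, a carboxypeptidase that also protects other lysosomal enzymes, rose by 0.88 on the log2 scale.

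The 2 cathepsins that did not pass were Ctsf, at a log2 fold change of 0.01 ± 0.14 (SE), and Ctsk, at 0.62 ± 0.44. Ctsk and Ctss are neighbours on chromosome 3, with 17423 bases between them. Ctsk was at 1.03, 1.4, 3.55 and 1.88 FPKM in untreated 5xFAD HPC and overlapped with WT, so the adjacent genes differed in whether they passed. The other peptidases both rose: Lgmn, the asparaginyl endopeptidase that processes cathepsins, by 0.90 ± 0.15 and Tpp1, a tripeptidyl peptidase, by 0.45 ± 0.09 on the log2 scale (SE). The call for Tpp1 was lost with limma on log2(FPKM + 1), at an adjusted p of 0.089.

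Of the glycosidases and sulfatases, 4 of 9 rose. Gusb, the beta-glucuronidase, was at 11.2, 10.5, 9.70 and 10.4 FPKM in WT and at 30.02, 21.1, 20.8 and 25.3 in untreated 5xFAD, with a log2 fold change of 1.55 ± 0.21 (SE). Hexa, the alpha subunit of beta-hexosaminidase, was at 39.8, 39.3, 33.2 and 34.7 FPKM in WT and at 100, 83.5, 65.9 and 104 in untreated 5xFAD (1.28 ± 0.15). Naglu, which acts on heparan sulfate, was at 4.46, 4.87, 4.30 and 4.61 FPKM in WT and at 13.9, 10.4, 8.95 and 14.4 in untreated 5xFAD (1.399 ± 0.14). Each of these had its 4 untreated 5xFAD libraries above its 4 WT libraries. Man2b1, a mannosidase, rose by 1.11 on the log2 scale. Glb1 (beta-galactosidase) at 0.37, Gla at 0.29, Neu1 at -0.04, Arsb at -0.20 and Gaa at -0.21 did not pass, with adjusted p values from 0.0997 to 0.892 by edgeR.

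Of the lipid handling proteins, 2 of 7 rose. Npc2, the soluble partner of Npc1 in cholesterol export, ranged from 24.3 to 26.7 FPKM in WT and from 50.9 to 70.1 in untreated 5xFAD, a log2 fold change of 1.15 ± 0.19 (SE). Npc1 itself had a log2 fold change of -0.07 ± 0.12 (SE), and the difference between the pair was not tested. Asah1, acid ceramidase, rose by 0.54 ± 0.14 (SE, adjusted p = 0.0261 by edgeR), but this call was lost without the 3 libraries high in choroid plexus markers (adjusted p = 0.108) and without untreated 5xFAD replicate 1 (0.077). Lipa, the acid lipase, was at 0.46, and Psap, Ppt1 and Plbd2 were at 0.07 to 0.15 with no call. Psap had the highest WT level of all members and was at 667, 656, 597 and 871 FPKM in untreated 5xFAD against 719, 688, 574 and 686 in WT. Those groups overlapped almost wholly.

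Of the membrane proteins 3 of 6 rose, and they included the largest change of any member that passed the filter on low values. Cd68 (chr11:69664213-69666153 on GRCm38, minus strand), a glycoprotein of the late endosomes of macrophages and microglia, was at 9.66, 11.4, 8.41 and 9.88 FPKM in WT. It was at 112, 67.0, 57.1 and 103 in untreated 5xFAD mice. The log2 fold change was 3.12 ± 0.28 (SE), or 8.70-fold, with an adjusted p of 2.83e-05 by edgeR. Cd63 was at 103, 113, 94.6 and 90.6 FPKM in WT and at 389, 224, 192 and 219 in untreated 5xFAD. The first 5xFAD library stood well above the others, and the log2 fold change was 1.38 ± 0.23 (SE). Lamp2, which takes part in chaperone-mediated autophagy, rose by 0.63 ± 0.13 (SE), and its adjusted p was 0.051 without the 3 libraries high in choroid plexus markers. Lamp1 was at 177, 172, 153 and 144 FPKM in WT and at 201, 197, 172 and 224 in untreated 5xFAD, so that its groups overlapped. Its log2 fold change of 0.31 ± 0.10 (SE) had an adjusted p of 0.0719 by edgeR and of 0.0222 by DESeq2. Scarb2, which carries glucocerebrosidase to lysosomes, was at 0.16 and Mcoln1 at -0.10 with no call.

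Grn, the precursor of the granulins that sustain lysosomal enzymes, was the 1 member of the regulators that rose. It was at 39.3, 34.6, 31.4 and 36.1 FPKM in WT and at 113, 87.3, 75.7 and 119 in untreated 5xFAD, a log2 fold change of 1.49 ± 0.15 (SE, adjusted p = 5.96e-05 by edgeR) with no overlap. Tfeb was at 1.99, 1.69, 2.80 and 1.22 FPKM in WT and at 3.29, 1.59, 2.42 and 3.03 in untreated 5xFAD, and its log2 fold change of 0.38 ± 0.32 (SE) had an adjusted p of 0.506. Atp6v0d2 was too low to pass the filter, at 0 to 0.04 FPKM in WT, 0.10 to 0.46 in untreated 5xFAD and 0.09 to 0.70 in light-treated 5xFAD mice. With no filter on low values it was called higher than in WT in both, with adjusted p values of 0.0202 and 0.0154 by edgeR, but the size of a change from values at or near 0 is not given by the fit.

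Markers of phagocytes moved with these transcripts. All 15 microglia markers rose in untreated 5xFAD HPC, with a median log2 fold change of 1.64, and their summed FPKM was 633 to 707 in WT, 2181 to 3914 in untreated 5xFAD and 1617 to 2895 in light-treated 5xFAD mice. No microglia marker was at 0 in any HPC group. Of the 10 border macrophage markers 5 could be tested and 2 rose, and their sum went from 15.3 to 25.5 FPKM in WT to 120 to 241 in untreated 5xFAD. Markers of astrocytes rose in 5 of 8 cases and of meningeal fibroblasts in 5 of 10, with fibroblast sums of 50.0 to 76.8 in WT, 83.0 to 182 in untreated 5xFAD and 27.3 to 48.6 in light-treated 5xFAD mice. Neuronal markers had 0 of 10 higher and 1 lower.

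A scale set by the microglia markers was added after these values were seen. The summed microglia markers were 4.19-fold higher in untreated 5xFAD than in WT HPC, and each member was expressed as a percentage of that sum in its library. On this scale Ctsd was at 48.9% (mean) in WT and 53.6% in untreated 5xFAD, Ctss at 16.5% and 17.4%, Ctsz at 6.21% and 6.93%, and Ctsh at 1.23% and 1.34%. These 4 members overlapped between the groups. Cd68 was higher on this scale, at 1.21% to 1.80% in WT and 2.62% to 3.85% in untreated 5xFAD. The other 15 of the 20 members were lower without overlap, among them Ctsb at 23.6% and 10.5%. Lower values without overlap were found for 92.5% of all genes tested and higher ones for 0.455% on this scale. The share of the rise that comes from microglia was not tested.

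Other lysosomal genes were described from lists of 146 symbols beyond the members, of which 135 were tested in HPC. In untreated 5xFAD HPC, 18 of them rose and 1 fell, where 6.48% of all genes tested were higher and 2.06% were lower. The counts by list below are to be read beside these shares. Among other hydrolases and their activators 10 of 25 rose, among them Dnase2a, an acid DNase, at a log2 fold change of 1.74, and Rnaset2b, an acid RNase with a near-identical copy that could share its reads, at 1.08. Among membrane proteins and transporters 3 of 28 rose, namely Slc11a1, a metal exporter of phagosomes, at 3.02, Laptm5 at 1.81 and Slc29a3 at 0.72. Of the V-ATPase subunits 2 of 19 rose (Tcirg1 at 0.97 and Atp6v0e at 0.70), and 1 of 31 genes of enzyme sorting and lysosome biogenesis did (Nagpa at 0.68). Of 7 cathepsin inhibitors, Cst7, cystatin F, which blocks cathepsin C and other cysteine cathepsins, rose by 8.27 ± 0.48 on the log2 scale (SE), from a mean of 0.568 to 172 FPKM. Cst3, the abundant secreted cystatin C, rose by 0.62. Autophagy genes had 0 of 25 higher and 1 lower (Wipi2, -0.37).

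The comparison of light-treated with untreated 5xFAD mice asks whether light altered these transcripts. In HPC, 0 of the 36 members passed by edgeR, against 0.455% of all genes in either direction, and 5 had an unadjusted p below 0.05, against 18.3% of all genes. DESeq2 called 1, Arsb. The fold changes were below 0 for 30 members, with a median of -0.16, against -0.016 over all genes, of which 47.5% were above 0. Ctsd was at 954, 1070, 1602 and 1471 FPKM in light-treated mice, all within or just below the untreated range of 973 to 2097, and its log2 fold change was -0.25 ± 0.22 (SE). Ctss was at 330, 264, 489 and 471 FPKM (-0.34 ± 0.23), Ctsb at 219, 233, 275 and 273 (-0.21 ± 0.15) and Ctsl at 95.1, 105, 138 and 130 (-0.30 ± 0.16). In each of these, light-treated replicates 1 and 2 were below replicates 3 and 4.

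Cd68 was at 51.7, 61.5, 102 and 101 FPKM in light-treated mice, overlapping the untreated range of 57.1 to 112, and its log2 fold change was -0.10 ± 0.25 (SE). Grn was at 80.3, 79.3, 101 and 99.2 FPKM (-0.13 ± 0.15), Lamp1 at 172, 191, 183 and 203 (-0.09 ± 0.10) and Tfeb at 3.44, 2.08, 2.30 and 3.25 (-0.02 ± 0.32). All of these overlapped with the untreated group. The mean summed FPKM of the members was 4359 ± 631 in light-treated and 5017 ± 1116 in untreated mice (SD, n = 4 each), a ratio of 0.869. A p above the threshold does not show that light left the members as they were.

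The member with the smallest p was Arsb, the sulfatase, which was higher in light-treated mice. It was at 25.4, 30.6, 25.4 and 33.9 FPKM in untreated and at 39.0, 39.4, 39.7 and 35.0 in light-treated mice, so that the groups did not overlap by a narrow gap. Groups in this order were found for 3.66% of all genes. The log2 fold change was 0.41 ± 0.09 (SE, adjusted p = 0.0687 by edgeR and 0.0018 by DESeq2). Against WT mice, Arsb stood at -0.20 in untreated and 0.20 in light-treated 5xFAD HPC, with no call. The next were Asah1 at -0.37 ± 0.14 (adjusted p = 0.184), Cd63 at -0.53 ± 0.22 (0.227), Lamp2 at -0.30 ± 0.12 (0.231) and Ctsc at -0.53 ± 0.24 (0.266), none of which passed edgeR's test. Cd63 was at 133, 154, 212 and 213 FPKM and Ctsc at 10.1, 7.20, 12.2 and 12.2 in light-treated mice, both with overlap. Lamp2 was at 41.8, 45.2, 48.4 and 49.5 FPKM in light-treated and at 72.0, 50.1, 53.9 and 53.8 in untreated mice, with no overlap, an order found for 3.98% of all genes. Of the 135 other lysosomal genes 0 passed and 12 had an unadjusted p below 0.05 by edgeR, against 0.455% and 18.3% of all genes. Meningeal fibroblast markers fell in 3 of 10 cases in the same comparison, and their part in these values was not tested.

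**Figure D3:**
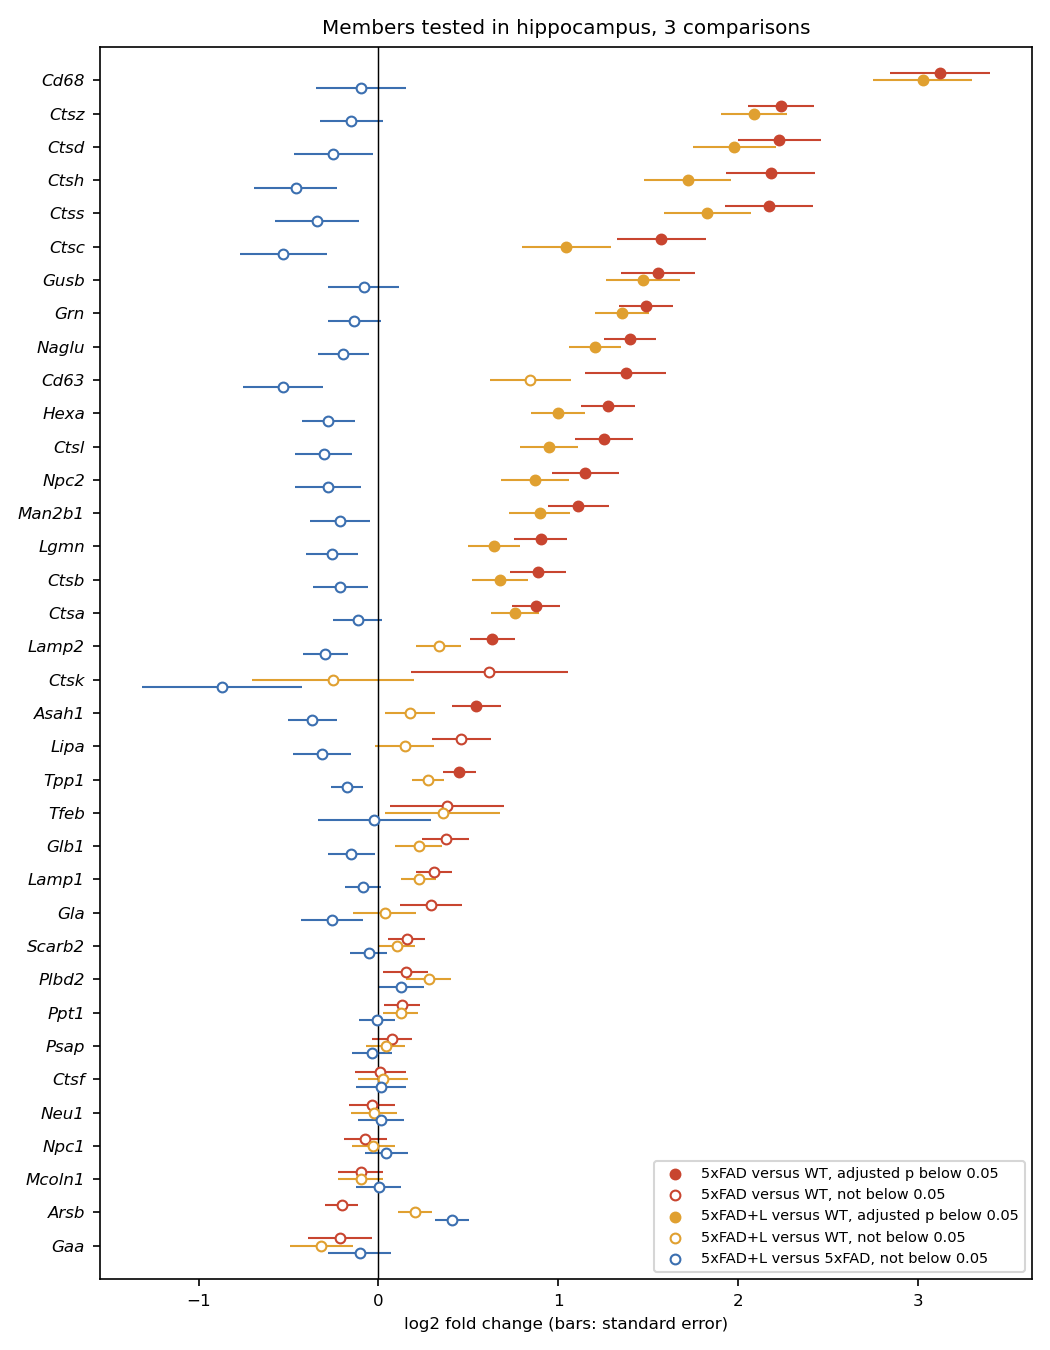
Log2 fold change with its standard error for the 36 members tested in hippocampus, in 3 comparisons: untreated 5xFAD versus WT, light-treated versus untreated 5xFAD, and light-treated 5xFAD versus WT. The first runs from -0.21 to 3.12 and the third from -0.32 to 3.03, while most values of light-treated versus untreated mice lie a little below 0.

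Light-treated 5xFAD mice were also compared with WT mice, using the same WT libraries as above. In HPC, 16 of 36 members were higher and 0 were lower, against 3.05% of all genes higher and 0.539% lower. Of the 16, 9 were at least 2-fold higher, against 2.36% of all genes in either direction. The median log2 fold change was 0.35, against -0.0015 over all genes. The groups were apart in 21 members, against 7.33% of all genes. Cd68 stood at a log2 fold change of 3.03 ± 0.28, Ctsz at 2.09 ± 0.18, Ctsd at 1.98 ± 0.23, Ctss at 1.83 ± 0.24, Ctsh at 1.72 ± 0.24 and Grn at 1.35 ± 0.15 (SE). The 4 members called in untreated but not in light-treated mice against WT were Cd63 (0.84 ± 0.22, adjusted p = 0.0565 by edgeR), Lamp2 (0.34 ± 0.13, 0.192), Asah1 (0.18 ± 0.14, 0.558) and Tpp1 (0.28 ± 0.09, 0.132). None of these 4 passed the direct comparison of light-treated with untreated mice, so they are not shown to differ between the 5xFAD groups. Of the 16, Ctsb, Ctsc, Lgmn and Npc2 lost their call when single libraries were left out, with adjusted p values up to 0.0828, 0.0997, 0.0816 and 0.0639.

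In meninges all 37 members were tested, and 0 passed in any comparison by edgeR. For untreated 5xFAD against WT mice, 0% of the 14318 genes passed, and 0 of 37 members had an unadjusted p below 0.05, against 4.01% of all genes. All 37 members overlapped between the groups, while 4.85% of all genes did not. Their median log2 fold change was 0.02, against -0.0029 over all genes. Ctsd was at 794, 1035, 832 and 858 FPKM in WT and at 758, 935 and 1000 in untreated 5xFAD meninges. Cd68 was at 52.9, 43.8, 21.8 and 38.1 FPKM in WT and at 33.0, 57.1 and 35.2 in untreated 5xFAD meninges (log2 fold change 0.09 ± 0.33, SE). Both thus had 5xFAD libraries inside the WT range. Ctss was at 163, 169, 89.0 and 115 FPKM in WT and at 87.6, 114 and 162 in untreated 5xFAD, and Grn at 116, 110, 76.1 and 111 and at 79.2, 109 and 111. The smallest p values were those of Scarb2 (0.34), Ctsc (0.43), Lamp2 (0.35), Ctsk (0.46) and Man2b1 (-0.32, all log2 fold changes), each with an adjusted p of 0.987 by edgeR.

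In light-treated against untreated 5xFAD meninges, 2 members had an unadjusted p below 0.05 and 0 passed by edgeR, against 12.7% and 0.014% of all genes. Lgmn was at 94.3, 104 and 94.9 FPKM in untreated and at 139, 180 and 179 in light-treated mice, with no overlap and a log2 fold change of 0.77 ± 0.28 (SE, adjusted p = 0.313 by edgeR). Man2b1 had a log2 fold change of 0.60 ± 0.27 and overlapped. Ppt1 (0.55), Tfeb (-0.67) and Ctss (0.60) came next, with adjusted p values from 0.412 to 0.433. Ctsa, Ctsc, Ctss and Lgmn were higher without overlap, an order found for 10.1% of all genes, and Tfeb was lower without overlap, at 5.26, 4.55 and 3.42 FPKM against 5.79, 7.49 and 5.82, an order found for 10.7%. Against WT meninges, 4 members had an unadjusted p below 0.05 in light-treated mice, against 16.4% of all genes, and 0 passed by edgeR, against 0.014%. They were Ctsc (1.02 ± 0.29, adjusted p = 0.147), Lamp2 (0.73 ± 0.24, 0.174), Asah1 (1.00 ± 0.33, 0.175) and Lgmn (0.62 ± 0.26, 0.255), followed by Lipa (0.55 ± 0.26, 0.305). DESeq2 called Ctsc, at an adjusted p of 0.0419. Ctsc was at 37.2, 39.2, 22.2 and 14.7 FPKM in WT and at 51.2, 63.5 and 57.4 in light-treated meninges, with no overlap, an order found for 6.99% of all genes.

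Whether 5xFAD status acted differently in the 2 tissues was tested as an interaction in a fit of HPC and meninges together, which takes the libraries as independent. Whether both tissues came from the same mice is not given in the sources used here. The 5xFAD effect was larger in HPC than in meninges for 13 of 36 members and smaller for 0, against 2.01% and 0.0819% of all 12211 genes. The median difference of the log2 fold changes was 0.44 for the members and 0.09 for all genes. The differences were 3.05 ± 0.44 for Cd68, 2.32 ± 0.39 for Ctss, 2.26 ± 0.30 for Ctsz, 2.21 ± 0.31 for Ctsd and 2.03 ± 0.39 for Ctsh (SE). The others were Gusb, Naglu, Grn, Man2b1, Npc2, Cd63, Hexa and Ctsa, at 0.97 to 1.53. Lgmn missed the threshold, with 1.07 ± 0.28 and an adjusted p of 0.0509 by edgeR. The count rested in part on single libraries. It was 8 without untreated 5xFAD meninges replicate 1 (Cd68, Ctsd, Ctsh, Ctss, Ctsz, Grn, Hexa and Npc2). It was 4 without the 3 HPC libraries high in choroid plexus markers (Cd68, Ctsd, Ctss and Ctsz). That run also had fewer libraries, so a loss of power and the choroid plexus content cannot be told apart.

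**Figure D4:**
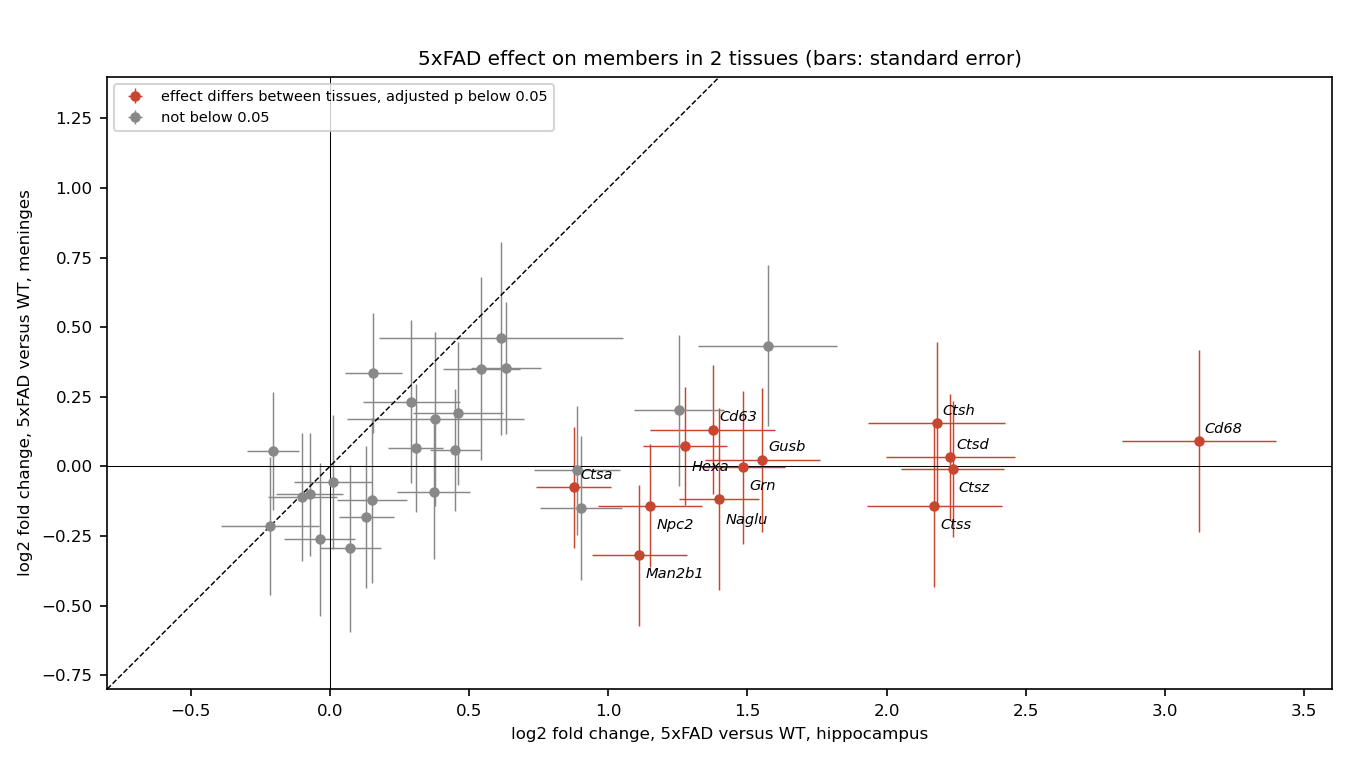
Log2 fold change of untreated 5xFAD versus WT mice in hippocampus (horizontal) and meninges (vertical) with standard errors, for the members tested in both, where the dashed line marks equal change. The 13 members in red, whose change differed between the tissues, lie to the right of the line, with Cd68 at 3.12 in hippocampus and 0.09 in meninges.

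The same interaction for light against no light gave 0 of 36 members by edgeR, against 1.74% of all genes in either direction, and 7 with an unadjusted p below 0.05, against 21.7%. The median difference was -0.32 for the members and -0.06 for all genes, and 30 of 36 were below 0, where 45.8% of all genes were above it. The smallest adjusted p was that of Lgmn (-1.002 ± 0.29, adjusted p = 0.07 by edgeR, 0.025 by DESeq2). Asah1 stood at -0.97 ± 0.38 (adjusted p = 0.147), and at 0.0433 without untreated 5xFAD meninges replicate 4. Both comparisons use the same untreated 5xFAD libraries as those above.

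In mLECs 35 of the 37 members were tested, and Ctss and Atp6v0d2 were not. Atp6v0d2 was listed at 0 in all 10 libraries, and Ctss, which is abundant in phagocytes, was at 3.10 FPKM in WT replicate 3 and at 0 in the other 9. Of the 37 members, 12 reached 1 FPKM in every library: Ctsb, Ctsc, Ctsd, Ctsh, Ctsl, Ctsz, Lgmn, Hexa, Npc2, Lamp1, Lamp2 and Cd63. In turn, 17 were at 0 in at least 1 library, and a library had 3 to 13 members at 0. The highest median was that of Lgmn, at 1502, 135, 588 and 682 FPKM in WT, 1935, 620 and 719 in untreated 5xFAD and 594, 911 and 306 in light-treated mLECs. Ctsl was at 464, 350, 248 and 127 FPKM in WT, 557, 325 and 236 in untreated 5xFAD and 543, 386 and 290 in light-treated mLECs. Both varied between the libraries of each group, and the ranges of the groups overlapped. Ctsb was at 436, 112, 371 and 590 FPKM in WT, 603, 322 and 319 in untreated 5xFAD and 278, 396 and 323 in light-treated mLECs.

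By edgeR, 0 members passed in any of the 3 mLEC comparisons, against 0% of the 8188 genes for 5xFAD versus WT and for light-treated versus untreated 5xFAD, and 0.0122% for light-treated 5xFAD versus WT. The members with an unadjusted p below 0.05 numbered 3, 0 and 3 in the same order, against 3.81%, 4.01% and 6.72% of all genes. The median log2 fold change of the members was 0.03, 0.02 and 0.05, against -0.04, 0.03 and -0.05 over all genes. With a spread this wide, small differences were not detectable, and large ones could also go uncalled. Plbd2 in untreated 5xFAD against WT mLECs, for example, had a log2 fold change of -13.1 and did not pass.

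Plbd2, a lysosomal phospholipase B-like protein, had the smallest p. Its counts were 7944, 5588, 891 and 2551 in the WT libraries, 0, 1 and 0 in untreated 5xFAD and 0, 5 and 0 in light-treated libraries. All 4 WT libraries were thus above all 6 others, and this held for the pair of WT libraries that lacked Ccl21a too. In untreated 5xFAD against WT mLECs its adjusted p was 0.806 by edgeR, and it was 0.000251 with no filter on low values and 1.64e-12 by DESeq2. For light-treated 5xFAD against WT mLECs these were 0.221, 0.00122 and 1.79e-13. Without the 2 WT libraries that lacked Ccl21a it had too few values above the filter to be tested. In HPC it was at 16.5 to 24.4 FPKM in WT and 19.1 to 25.0 in untreated 5xFAD mice, with overlap. DESeq2 also called Npc1 in both comparisons with WT and Arsb in light-treated against WT mLECs, genes that were at 0 or near it in most libraries.

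Ctsd in mLECs was at 634, 319, 250 and 250 FPKM in WT, at 118, 119 and 127 in untreated 5xFAD and at 43.7, 70.5 and 384 in light-treated 5xFAD mice. Untreated 5xFAD libraries were all below WT, an order found for 1.22% of all genes, and the log2 fold change was -1.80 ± 0.73 (SE, adjusted p = 1.00 by edgeR). Light-treated libraries overlapped with both. Lamp1 was at 104, 65.5, 148 and 123 FPKM in WT, at 269, 208 and 219 in untreated 5xFAD and at 117, 82.9 and 259 in light-treated mLECs. It was higher without overlap in untreated 5xFAD than in WT, an order found for 5.01% of all genes, with a log2 fold change of 0.93 ± 0.51 (SE) that did not pass. Grn was at 312, 0.10, 132 and 98.3 FPKM in WT, 185, 167 and 104 in untreated 5xFAD and 133, 53.2 and 194 in light-treated mLECs, and its value near 0 was in a library that lacked Ccl21a. Cd68 was at 0 to 11.6 FPKM and Tfeb at 0 to 7.43 across the 10 libraries.

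Light-treated and untreated 5xFAD mLECs had their smallest p values at Arsb, Cd68, Tfeb, Lamp1 and Lgmn, each with an adjusted p of 1 by edgeR. Lamp2 was higher without overlap in light-treated mLECs, at 169, 108 and 114 FPKM against 104, 101 and 82.6, an order found for 3.55% of all genes. The summed FPKM of the members was 2469 to 5216 in WT, 3215 to 5313 in untreated 5xFAD and 3526 to 3599 in light-treated mLECs. These spans overlap between all 3 groups. mLEC values come from a table of their own, so their levels beside HPC and meninges are a description with no test.

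**Figure D5:**
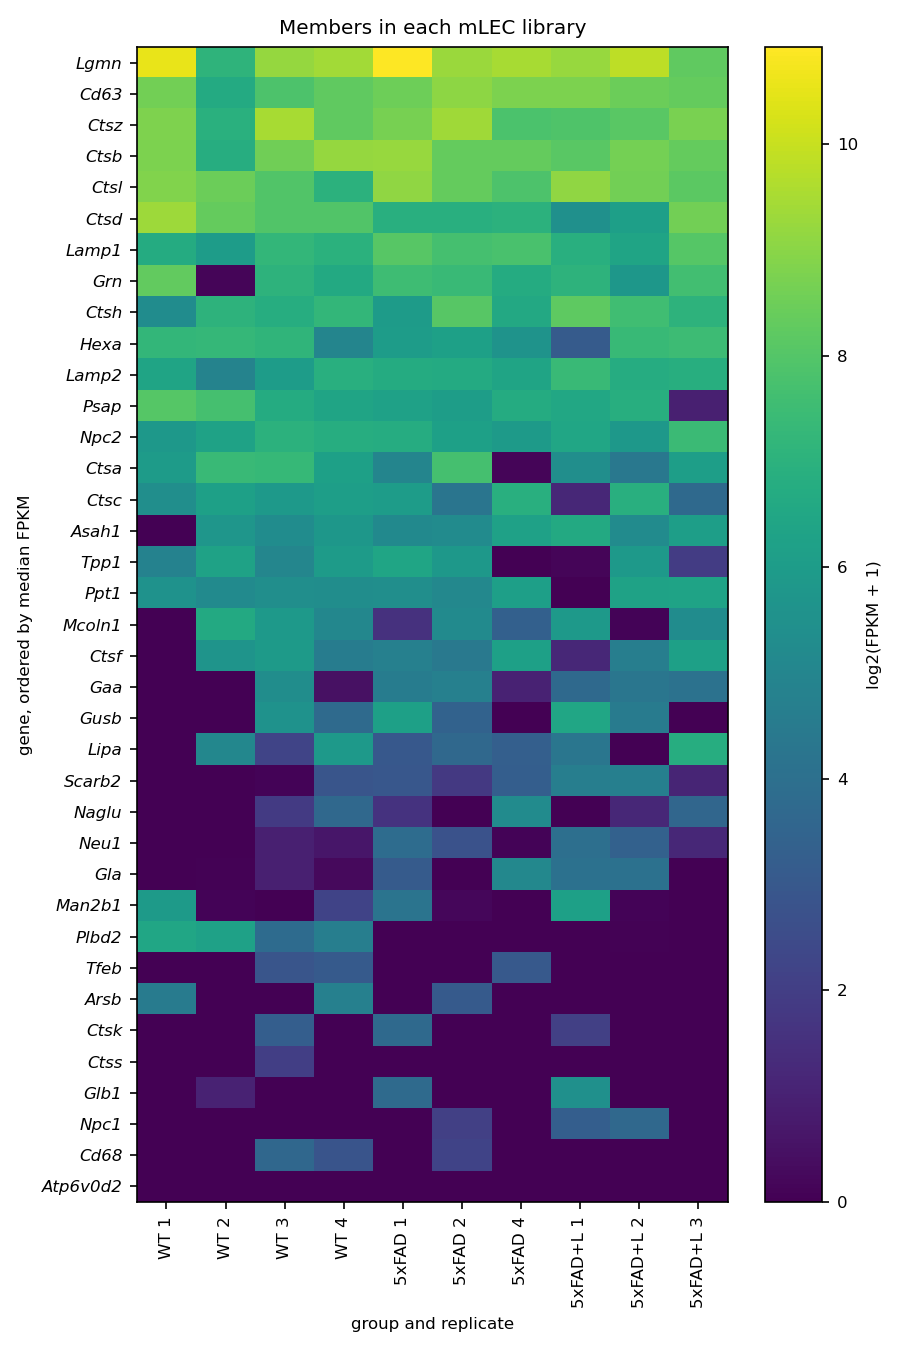
Heat map of log2(FPKM + 1), given by the colour bar, for the 37 members (rows, ordered by median FPKM) in the 10 sorted mLEC libraries (columns: 4 WT, 3 untreated 5xFAD and 3 light-treated 5xFAD, named 5xFAD+L). Lgmn leads, Plbd2 is dark in the 6 5xFAD libraries and lighter in the 4 WT libraries, and many members switch between dark and light within a group.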

How the data were processed

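HPC, meninges and sorted mLECs were profiled by RNA-seq after Smart-seq2 amplification, in 32 libraries, each from the tissue of 1 mouse. The authors deposited estimated counts and FPKM values per gene, mapped to mm10. The submitters' notes name Trimmomatic, HISAT2, StringTie and DESeq2, whereas the methods of the study name fastp, RSEM and DESeq2, and which of these made the files was not settled. Symbols came from the mLEC table. Positions were taken from GENCODE annotation of GRCm38.

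Estimated counts were rounded to whole numbers and tested with the quasi-likelihood test of edgeR 4.0.16 (R 4.3.3), with TMM factors, the 3 groups of a tissue in 1 fit, and genes at 1 FPKM or more in at least 3 samples. p-values were adjusted by Benjamini and Hochberg over all genes tested, and a call is an adjusted p below 0.05. HPC and meninges were fitted together for the differences between tissues. Limma 3.58.1 and DESeq2 1.42.0 were alternatives. The tests were tried on simulated data, but the outcome is not given here and is not used as support for any result. The p-values rest on the spread between libraries of different mice, which includes technical variation.

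All members are accounted for. Values by sample are given for up to 12 members past the threshold in a comparison and for Ctsb, Ctsd, Ctsl, Ctss, Cd68, Lamp1, Grn and Tfeb. Where none passed, the 5 with the smallest p are named. Of other lysosomal genes, which are not members, up to 3 per list are named, and 1 that this rule would name is not reported here. The members and lists were chosen with earlier results of these data known.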

Additional observations from a re-analysis of the deposited data

Results flagged for a closer look

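The 5xFAD effect differed between HPC and meninges for 13 members by the interaction test, as log2 values of HPC minus meninges. They were Cd68 (3.05), Ctss (2.32), Ctsz (2.26), Ctsd (2.21), Ctsh (2.03), Gusb (1.53), Naglu (1.53), Grn (1.5), Man2b1 (1.44), Npc2 (1.31), Cd63 (1.26), Hexa (1.22) and Ctsa (0.967).

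One library stood far from the other 3 of its group, by Dixon's criterion at its 95% critical value, in 18 of the 180 sets of 4 values examined, where chance gives about 1 in 20. In WT HPC these were Ctsh (7.07 FPKM) and Npc1 (7.46) in replicate 4 and Man2b1 (12) in replicate 3. In untreated 5xFAD HPC they were Npc2 (70.1) and Cd63 (389) in replicate 1, a library high in choroid plexus markers, and Npc1 (9.94) in replicate 4. In light-treated HPC they were Neu1 (33.5) in replicate 3 and Arsb (35.0) in replicate 4. In WT meninges they were Ctsf (87.2) and Grn (76.1) in replicate 3, and Arsb (22) and Tfeb (2.95) in replicate 1. In WT mLECs they were Ctsk (8.49) and Gaa (39.8) in replicate 3, Hexa (29.9) and Scarb2 (6.41) in replicate 4, Glb1 (1.04) in replicate 2 and Man2b1 (59.9) in replicate 1, of which replicates 2 and 4 lacked Ccl21a.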

How the results depend on the processing

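No called member reversed its direction in any alternative run. Members without a call and near 0 did change sign in HPC of untreated 5xFAD against WT, namely Ctsf (-0.13 to 0.10 over the alternatives), Neu1 (-0.20 to 0.09), Psap (-0.03 to 0.14) and Npc1 (-0.18 to 0.06), and so did others in other comparisons, such as Asah1 in the 5xFAD interaction (-0.09 to 0.61). In HPC, untreated 5xFAD against WT gave 20 members, 19 to 23 with single libraries left out, 19 with a replicate block, 14 at 2-fold and 17 without the 3 libraries high in choroid plexus markers, an alternative chosen after seeing the data. Of the 20 calls, 14 were kept in every alternative, which includes the 2-fold rule that drops smaller changes by definition. Ctsa, Ctsb and Lgmn were lost only by that rule. Light-treated 5xFAD against WT HPC gave 16, 9 at 2-fold, 15 with the block and 12 to 16 with single libraries left out. Of the 16 calls, 8 were kept throughout, and Ctsa, Ctsl, Hexa and Man2b1 were lost only by the 2-fold rule. Gaa, which had no call in the main fits, passed as lower in some alternative run of both comparisons. Its log2 fold change over the alternatives was -0.44 to -0.06 in untreated and -0.38 to -0.26 in light-treated 5xFAD against WT HPC.

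DESeq2 called 1 member (Arsb) in light-treated against untreated HPC, 1 (Ctsc) in light-treated against WT meninges, 2 (untreated 5xFAD) and 3 (5xFAD with light) against WT mLECs, and 1 (Lgmn) in the light interaction, where edgeR called 0. Without the filter on low values, edgeR called 1 member, Plbd2, in each mLEC comparison with WT. The 5xFAD interaction gave 13, 12 with the replicate block, 8 to 16 with single libraries left out and 4 without the 3 high-choroid libraries. Runs without those 3 libraries also rest on fewer mice. The light interaction gave 0 to 1. WT meninges against WT HPC gave 28, 28 with the block and 26 to 30. The causes were not tested. Within a tissue, same-numbered libraries did not all deviate together (correlations were as low as -0.303). This check cannot show whether libraries with the same number share a batch. The block gave 0 calls in the other comparisons. The wide spread of the mLEC libraries limits what could be detected there.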

Other observations

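Beyond the members, 44 lysosomal genes were higher and 43 lower in WT meninges than in WT HPC, of 139 tested, where 37.8% of all genes were higher and 33.2% lower, so neither share stands above that of all genes. Acp5, the tartrate-resistant phosphatase of osteoclasts, was at a mean of 83.7 FPKM in meninges and 0.398 in HPC (log2 difference 7.67), and Plbd1, a relative of Plbd2, differed by 7.51. Summed osteoclast markers were 114 to 528 FPKM in meninges and 1.97 to 6.63 in HPC over all groups. This sum includes Acp5 and Ctsk, so it is no separate measure beside Acp5. The part of osteoclasts in these levels was not tested.

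Of 135 other lysosomal genes, 1 passed the test of a difference in the response to light between HPC and meninges, against 1.74% of all genes. It was Sort1, which sorts proteins from the Golgi to lysosomes (1.35 on the log2 scale, adjusted p = 0.0389 by edgeR).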
